A study of Mus musculus with 20 samples.

Results

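The L and the V libraries of an RNA sequencing experiment on colonic intestinal epithelial cells (IECs) were compared, 10 libraries against 10. Each library carries 2 letters and a number in its name, the first letter being C for home cage control mice (Con) or S for mice exposed to the social disruption stressor (Str), and the second letter being L or V. All 20 of the 20 libraries of the series entered, chosen by the second letter alone. The L libraries were CL1, CL2, CL3, CL4, CL6, SL1, SL2, SL4, SL5 and SL6, the V libraries bore the same numbers with V, and each side held 5 Con and 5 Str libraries. What the second letter stands for is not given in the sources used here, so a difference between L and V is a difference between 2 sets of libraries whose origin is unknown.

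The mice were young adult male C57BL/6NCrl, an inbred strain, in all 4 combinations of group and letter. Str mice met an aggressive male in their own cage for 2 h per day over 6 days, and Con mice were left in their home cages. Colonic cells with the epithelial adhesion molecule EpCAM on their surface and without the leukocyte protein CD45 were sorted with magnetic beads. The labels number separate mice but give no cage, and mice of a cage met the stressor together, so the p-values, which treat mice as independent, measure the spread between these libraries.

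The colonic epithelium is renewed from stem cells in the crypts and consists mainly of absorptive colonocytes and mucus-secreting goblet cells, with smooth muscle, fibroblasts and vessels in the layers beneath it. Immediate early genes are transcribed within a short time of a growth factor, cytokine or mechanical stimulus, without new protein synthesis. The unfolded protein response raises the chaperones of the endoplasmic reticulum, and the circadian clock is a loop of activators and repressors that gives many epithelial transcripts a daily rhythm.

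Counts summed over the genes of the table to 20034127 to 26141352 per V library (median 23991893) and 20390091 to 24300514 per L library (median 22112418.5), which did not pass an exact two-sided permutation test within Con and within Str (63504 arrangements, p = 0.0637, adjusted p = 0.0872 over the 4 library values tested). Levels are given as CPM, counts scaled to a common library size with TMM factors. Epithelial identity held on both sides, the 11 measured markers summing to 18824 to 23000 CPM in V and 18013 to 21269 CPM in L, while *Ptprc*, which encodes CD45, was at 0.507 to 2.17 CPM in V and 0.329 to 1.62 CPM in L. The libraries CV3, CV4, CV6 and CL1, all Con and 3 of them V, also held liver transcripts. The albumin gene *Alb* lay between 69.3 and 79.9 CPM in these 4 and between 1.64 and 3.19 CPM in the remaining 16. Counts without these 4 libraries are given beside those they moved.

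In a principal component analysis of the 13516 genes with a mean of at least 1 CPM, the first component (33.1% of the variance) mostly followed Con and Str, and the second (15.9%) mostly followed the letter. On the second component 8 of the 10 V libraries lay above 0 and 9 of the 10 L libraries lay below it. The exceptions were CV4 at -16.0 and SV5 at -1.10 among V, and CL6 at 5.36 among L. CV4 therefore lay among the L libraries, and SL4 and SL5 lay among the Con libraries on the first component, at -9.11 and -10.3.

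**Figure D1:**
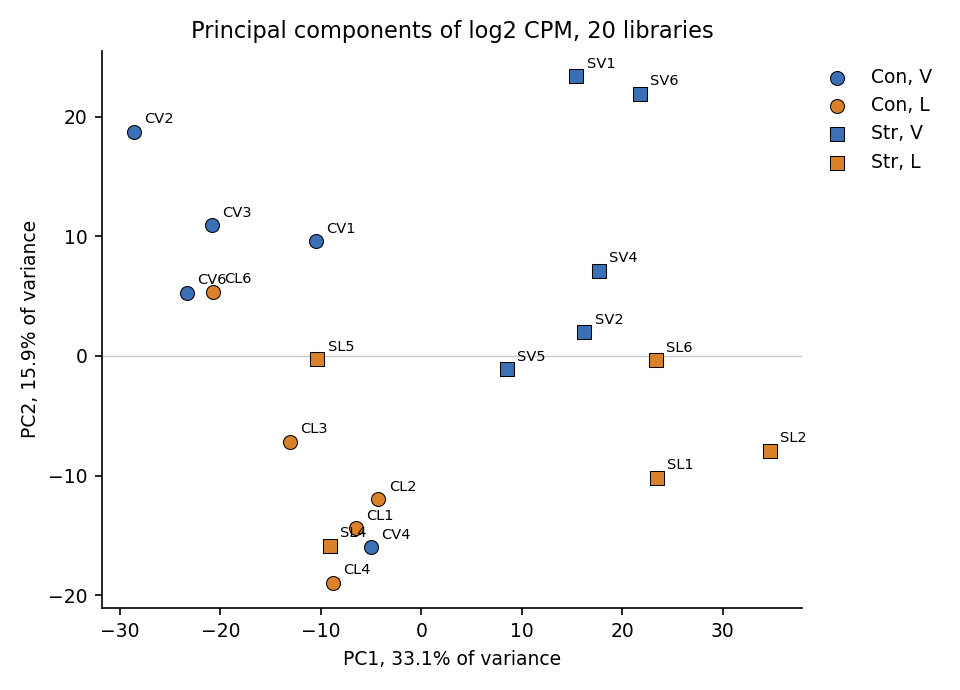
Scores of the 20 libraries on the first (horizontal, 33.1% of the variance) and second (vertical, 15.9%) principal components of log2 CPM, with colour for the letter and shape for Con or Str. All L libraries but CL6 lie below 0 on the second component, where CV4 and SV5 are the V libraries found below 0.

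Many genes differed between L and V, nearly all by less than 2-fold. With Con or Str as a covariate, edgeR's quasi-likelihood test called 371 of 15876 genes higher in L (2.34%) and 405 lower (2.55%) at an adjusted p under 0.05, or 776 in all (4.89%). The median log2 fold change, L over V, was 0.39 among the higher and -0.20 among the lower genes, against -0.00 over all genes, and 4 higher genes and 1 lower gene passed 2-fold. The smallest adjusted p was 0.000133. With library sizes as the only scaling the split was 576 higher and 194 lower, so the balance of directions depends on the scaling. Leaving out these 4 liver-holding libraries left 79 genes higher and 123 lower, of which 67 and 106 were among those called with all libraries. Of the 4 libraries 3 are V and all are Con, so both sides were smaller. A call lost in this way can go with a log2 fold change of much the same size.

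Single libraries moved these counts widely. Without CV4, the V library that lay among the L libraries, 740 genes were higher and 677 lower. The counts fell to 130 and 189 without CV3, 146 and 214 without SV6, 148 and 218 without CL4, 166 and 230 without SL2, 169 and 248 without CL2, 176 and 227 without CV6, 181 and 231 without CL1, and 232 and 263 without CL3. Those called higher also fell to 225 without SL1 and 247 without SV4.

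The Con and the Str libraries can be fitted apart, sharing no library, and the direction was mostly the same in both. Fitted on the Con libraries alone, 33 genes passed, and 31 of them had the same direction in the Str libraries alone, 21 at an unadjusted p under 0.05. Of the 200 genes of smallest p in Con alone, 180 (90%) had the same direction in Str alone, and of the 200 of smallest p in Str alone, 185 (92.5%) had the same direction in Con alone. Over all genes the share was 64.1%. Genes vary together and are not independent replicates, so these shares are a description. Fitted on Str alone, 0 genes passed.

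In a fit with the means of the 4 combinations of group and letter, 14 genes were higher in L (0.0882%) and 37 lower (0.233%) within Con, 51 in all (0.321%), and 5 higher (0.0315%) and 11 lower (0.0693%) within Str, 16 in all (0.101%). Within Con these counts were 0 and 0 without CV6, CL2 or CL3, 2 and 8 without CV1, 1 and 10 without CL1, 3 to 6 and 20 to 30 without CV2, CV3, SV4 or SL6, 16 and 21 without CL6, 16 and 56 without SV2, 81 and 59 without CV4, and 0 and 1 without all 4 libraries that hold liver transcripts, which leaves 2 V and 4 L libraries in Con. Within Str they were 0 and 0 without SV5 and 21 and 24 without SV2, at most 2 and 4 without SV1, SL1, SL4 or SL5, and 0 and 10 without the 4 libraries. The test of whether the difference between L and V itself differed between Con and Str called 0 genes in edgeR (smallest adjusted p = 0.86, with 918 genes at an unadjusted p under 0.05), 0 in limma-voom and 1 in DESeq2. That gene was *Hpd*, which encodes an enzyme of tyrosine breakdown, at a log2 difference of 0.47 (adjusted p = 0.0444 from DESeq2). In edgeR its L over V change was -0.27 within Con and 0.20 within Str, with an adjusted p of 0.86 for the difference. The DESeq2 interaction was not refitted without CV3, CV4, CV6 and CL1, the libraries that hold liver transcripts, so their part in this call was not tested. All 4 are Con, and 3 of them are V. The other genes of smallest interaction p with a known role included *Hspb1* and *Hsph1*, which encode heat shock chaperones, with L over V log2 fold changes of 0.65 and 0.70 within Con and -0.45 and -0.57 within Str. *Gfi1*, a transcription factor of secretory cells, was at -0.49 and 0.25, and *Hdac4*, a histone deacetylase, at 0.26 and -0.04, each with an adjusted p of 0.86 for the difference in edgeR.

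Read the other way, the same fit called 960 genes higher (6.05%) and 892 lower (5.62%) in Str than in Con within the V libraries, 1852 in all (11.7%). Within the L libraries it called 300 higher (1.89%) and 62 lower (0.391%), 362 in all (2.28%). Without the 4 libraries that hold liver transcripts it called 4 higher and 7 lower within V and 76 higher and 22 lower within L, with 2 Con libraries left in V and 4 in L. With 0 genes called by the interaction in edgeR they do not show that the response to Str differed by letter.

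The lowest adjusted p of the comparison belonged to *F3* and *Tnfrsf10b*, both lower in L. *F3* encodes tissue factor, the membrane protein that starts blood clotting, and lies on chromosome 3 from 121723537 to 121735052 of GRCm38.p6. Its level was 99.7 to 158 CPM in V (median 131) and 55.0 to 94.9 CPM in L (median 74.6). All 10 L libraries lay below all 10 V libraries, and the log2 fold change was -0.83 (edgeR, adjusted p = 0.000133, SE 0.10), -0.77 within Con and -0.89 within Str. *Tnfrsf10b* encodes the mouse death receptor for the ligand TRAIL and lies on chromosome 14 from 69767472 to 69784411. Its level was 37.4 to 58.6 CPM in V (median 49.4) and 27.1 to 37.0 CPM in L (median 33.1). The 2 sides again did not overlap, with the highest L library just under the lowest V library, CV2, and the log2 fold change was -0.61 (edgeR, adjusted p = 0.000133, SE 0.07).

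Complete separation of the sides was rare. All 10 V libraries lay above all 10 L libraries in 12 genes (0.0756%), and all L above all V in 3 genes (0.0189%). Besides *F3* and *Tnfrsf10b*, the 12 included *Rheb*, a small GTPase that activates the growth kinase mTORC1, at 44.3 to 57.9 CPM in V and 38.1 to 42.6 CPM in L. *Myl12a*, a regulatory light chain of nonmuscle myosin, was at 165 to 196 CPM in V and 150 to 163 CPM in L. *Tnfsf15*, which encodes the cytokine TL1A and was picked after its values were seen, lay at 8.81 to 13.2 CPM in V and 6.28 to 8.66 CPM in L. The log2 fold changes of *Rheb*, *Myl12a* and *Tnfsf15* were -0.32, -0.22 and -0.49 (adjusted p = 0.000476, 0.00068 and 0.00338 from edgeR). *Tatdn2*, which encodes a predicted nuclease, was at 132 to 157 CPM in V and 115 to 131 CPM in L (-0.25, adjusted p = 0.00171 from edgeR).

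The 3 genes with all L libraries above all V were *Ago3*, *Papolg* and *Mirg*. *Ago3* encodes an Argonaute protein that binds small RNAs and was at 24.99 to 29.1 CPM in V and 30.7 to 34.3 CPM in L, a log2 fold change of 0.24 (adjusted p = 0.0018 from edgeR). *Papolg* encodes a poly(A) polymerase and was at 22.7 to 24.7 CPM in V and 25.004 to 29.7 CPM in L, a log2 fold change of 0.22 (adjusted p = 0.00435 from edgeR). *Mirg* is a long noncoding RNA that hosts microRNAs of an imprinted cluster, and it was picked after its values were seen. It was rare, at 0.138 to 0.495 CPM in V and 0.539 to 1.04 CPM in L, with a log2 fold change of 1.27 (adjusted p = 0.00232 from edgeR). Next to these in p, with overlapping sides, were *Cideb*, a lipid droplet protein, *Osbpl10*, an oxysterol-binding protein, and *Pcyox1l*, at 0.26, 0.20 and 0.36 (adjusted p = 0.00548, 0.00731 and 0.00902 from edgeR).

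**Figure D2:**
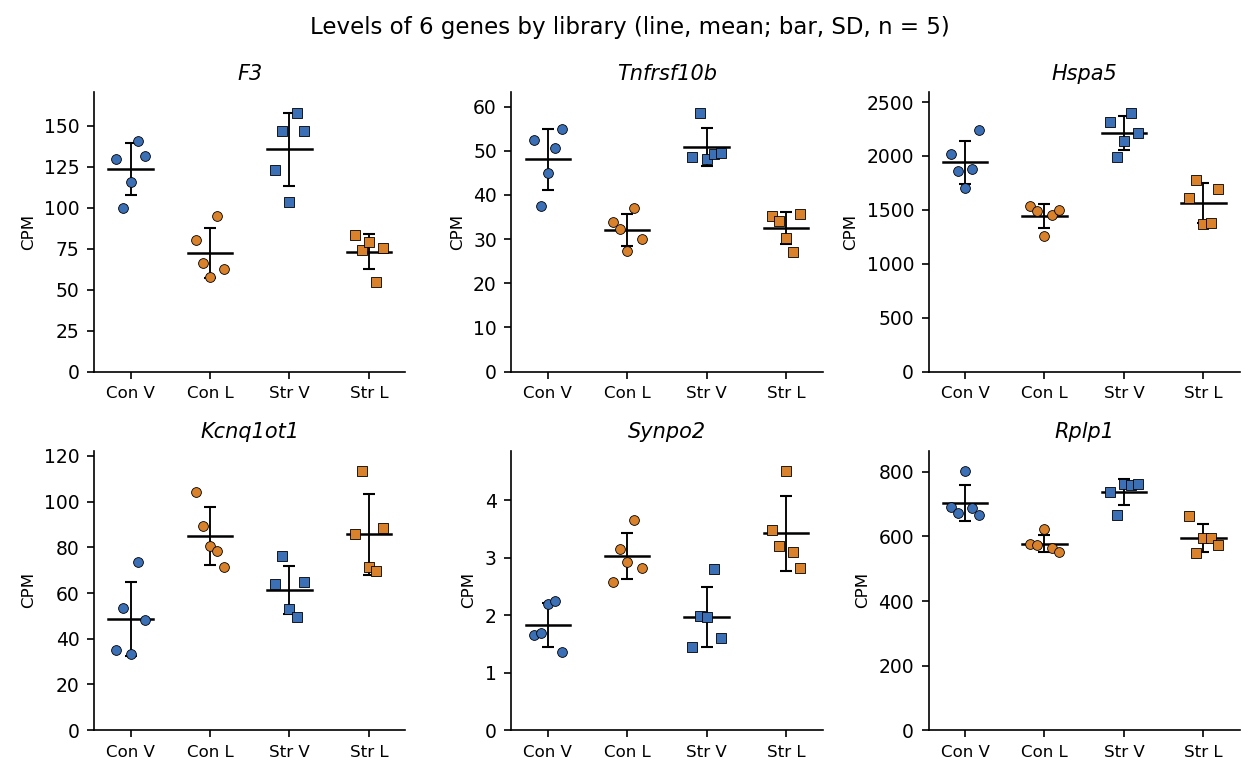
CPM of 6 genes (vertical axes, from 0) in each library by group and letter, with the mean (line) and SD (bar) of 5 libraries. *F3*, *Tnfrsf10b* and *Rplp1* have every L library below every V library, *Hspa5* is lower in L in Con and in Str, and *Kcnq1ot1* and *Synpo2* are higher in L on average in both.

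Part of the genes that cells induce early after a stimulus were lower in L. Of 31 measured immediate early genes, edgeR called 7 lower and 0 higher, 24 did not pass, and 25 of the 31 had a negative log2 fold change (median -0.16, against -0.00 over all genes). *Maff* encodes a small Maf transcription factor, *Fosl1* an AP-1 subunit and *Cyr61* a matricellular protein that binds integrins. *Maff* was at 140 to 191 CPM in V (median 170) and 95.0 to 141 CPM in L (median 118). Only CL4 among the L libraries reached the lowest V library, SV6, and the log2 fold change was -0.52 (edgeR, adjusted p = 0.000477, SE 0.07). *Cyr61* was at 235 to 464 CPM in V (median 356) and 228 to 294 CPM in L (median 248). Its V values lay above every L library except in SV6, which was in the L range, and its log2 fold change was -0.51 (adjusted p = 0.00207 from edgeR). *Fosl1* was at -0.46 and *Ier2*, an early response gene, at -0.28 (adjusted p = 0.0025 and 0.00475 from edgeR). The other 3 called members, *Klf6*, *Gadd45a* and *Atf3*, picked after their values were seen, were at -0.32, -0.32 and -0.34.

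The best known members of the list did not pass. *Fos*, *Jun* and *Egr1*, which encode AP-1 subunits and a zinc finger factor and were picked after their values were seen, had log2 fold changes of -0.12, -0.13 and -0.18 (adjusted p = 0.338, 0.233 and 0.163 from edgeR). Without the 4 libraries that hold liver transcripts 3 of the 31 members were lower, namely *Maff*, *Cyr61* and *Fosl1*. With any single library left out 7 or 8 members were lower.

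Outside this list, other genes of small p were lower too. *Fhl2*, a LIM domain cofactor, was at 31.8 to 50.2 CPM in V (median 40.3) and 23.9 to 32.5 CPM in L (median 27.2), a log2 fold change of -0.57 (adjusted p = 0.000424 from edgeR). *Csrnp1*, a nuclear protein induced by axin, was at 74.1 to 115 CPM in V and 57.5 to 75.8 CPM in L (-0.51, adjusted p = 0.000476 from edgeR). *Itprip*, whose product binds the inositol trisphosphate receptor, was at 11.8 to 19.5 CPM in V and 8.61 to 12.4 CPM in L (-0.61, adjusted p = 0.00165 from edgeR). The first of these 3 had 9 L libraries below every V library and *Csrnp1* had 8. *Acta1*, the skeletal muscle actin gene, was at 79.8 to 220 CPM in V (median 181) and 80.7 to 127 CPM in L (median 91.4), a log2 fold change of -0.79 (adjusted p = 0.00232 from edgeR). As for *Cyr61* and *Maff*, the lowest V library of *Acta1* was SV6, and the other 9 V libraries lay above every L library. *Srf*, which encodes serum response factor and was picked after its values were seen, had a log2 fold change of -0.27 (adjusted p = 0.00918 from edgeR). Its call was lost without the 4 libraries that hold liver transcripts, at a log2 fold change of -0.22 (adjusted p = 0.0748 from edgeR).

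Secreted mediators were lower in L in several cases. Of 21 measured inflammatory and acute phase genes 3 were lower, and of 28 genes of the NFkB pathway 3 were lower, with 0 higher in either list. Over all genes 2.55% were lower. In the 2 lists 18 and 25 members did not pass, and 7 and 11 had a positive log2 fold change. The medians were -0.21 and -0.03. *Nfkbia* encodes the inhibitor that holds NFkB in the cytoplasm and is itself a target of it. It was at 312 to 402 CPM in V (median 378) and 193 to 354 CPM in L (median 242), a log2 fold change of -0.54 (edgeR, adjusted p = 0.00207, SE 0.08). Of the L libraries, 9 lay below every V library, and SL1 did not. *Tnfaip3*, which encodes the deubiquitinase A20, and *Rela*, the p65 subunit, were at -0.45 and -0.26 (adjusted p = 0.00721 and 0.0182 from edgeR). The chemokine genes *Cxcl10* and *Cxcl1* were at -0.71 and -0.58 (adjusted p = 0.00902 and 0.0186 from edgeR), *Cxcl10* being rare at 3.25 to 6.86 CPM in V and 2.24 to 3.72 CPM in L. Without the 4 libraries that hold liver transcripts *Rela* and *Cxcl1* no longer passed (adjusted p = 0.0963 and 0.0675 from edgeR), and *Tnfaip3* and *Cxcl10* did. The log2 fold changes of *Rela* and *Cxcl1* were then -0.23 and -0.58. *Il1rn*, the interleukin 1 receptor antagonist, was at -0.27 (adjusted p = 0.0437 from edgeR) and passed in 15 of the 29 alternatives. *Edn1* (endothelin 1), *Plaur* (the urokinase receptor) and *Areg* (the EGF receptor ligand amphiregulin), picked after their values were seen, were at -0.60, -0.46 and -0.43 (adjusted p = 0.00267, 0.00435 and 0.013 from edgeR). Of these *Areg* was lost without the 4 libraries, at a log2 fold change of -0.44 (adjusted p = 0.0538 from edgeR).

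Part of the genes of the endoplasmic reticulum stress response were lower in L. Of 31 measured genes of the unfolded protein and integrated stress response, 8 were lower, 0 were higher and 23 did not pass, with 22 of the 31 negative and 9 positive (median log2 fold change -0.18, against -0.00 over all genes, with -0.05 within Con and -0.18 within Str). Their summed level was 6436 to 8000 CPM in V (median 7127) and 5432 to 6649 CPM in L (median 5929). *Hspa5* encodes BiP, the main chaperone of the endoplasmic reticulum, and lies on chromosome 2 from 34772090 to 34776529. Its level was 1702 to 2401 CPM in V (median 2078) and 1253 to 1781 CPM in L (median 1497). Of the L libraries, 9 lay below every V library, SL2 lay above the lowest of them, CV3, and the log2 fold change was -0.46 (edgeR, adjusted p = 0.000476, SE 0.06), -0.42 within Con and -0.50 within Str.

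*Hsp90b1*, which encodes the chaperone GRP94, was at 706 to 1196 CPM in V (median 880) and 558 to 802 CPM in L (median 676), a log2 fold change of -0.42 (adjusted p = 0.00267 from edgeR). *Atf4*, the transcription factor of the integrated stress response, was at -0.23, and *Ddit3*, its target CHOP, at -0.29 (adjusted p = 0.00378 and 0.00918 from edgeR). The other 4 called members, picked after their values were seen, were *Herpud1* (a factor of protein degradation), *Pdia6* and *Pdia4* (protein disulfide isomerases) and *Manf* (a secreted chaperone cofactor), at -0.29, -0.24, -0.22 and -0.23. The receptors and factors upstream, *Xbp1*, *Atf6* and *Ern1*, picked after their values were seen, were at -0.09, 0.04 and 0.06 (adjusted p = 0.327, 0.583 and 0.377 from edgeR). The count fell to 5 with library sizes as the only scaling, without the covariate and without any one of CV1, CV2, CV3, CV6, CL1, CL3, SV1, SV6 or SL1, and to 3 without the 4 libraries that hold liver transcripts. *Hspa5*, *Hsp90b1* and *Atf4* passed under all 29 alternatives run.

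The endoplasmic reticulum stress element (ERSE) is the motif through which ATF6 and XBP1 are known to act on chaperone promoters. It was searched as CCAAT, 9 bases of any kind and CCACG on both strands of RefSeq promoter windows of GRCm38.p6, from 250 bases before to 50 bases after each start. It occurred in 17 of 14764 windows (0.115%) and in 17 of the 11584 genes with a window (0.147%). Of the 27 list members with a window 6 held it, *Hspa5*, *Hsp90b1*, *Pdia6*, *Calr*, *Dnajc3* and *Syvn1*, and of these *Hspa5*, *Hsp90b1* and *Pdia6* were among the 8 members lower in L. The part of each of these 3 windows around the motif is shown with the ERSE in capitals, because they carry the motif that these called chaperone genes share. The windows are chr2:34771980-34772089 on the plus strand for *Hspa5*, chr10:86705445-86705664 on the minus strand for *Hsp90b1* and chr12:17266459-17266588 on the plus strand for *Pdia6*.
Hspa5: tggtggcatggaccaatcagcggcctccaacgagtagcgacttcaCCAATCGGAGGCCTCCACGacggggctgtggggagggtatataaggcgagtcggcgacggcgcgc
Hsp90b1: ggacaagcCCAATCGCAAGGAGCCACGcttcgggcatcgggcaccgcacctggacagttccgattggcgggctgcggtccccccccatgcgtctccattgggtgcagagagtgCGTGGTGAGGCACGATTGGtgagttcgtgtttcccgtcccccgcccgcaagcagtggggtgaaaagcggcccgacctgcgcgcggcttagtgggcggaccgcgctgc
Pdia6: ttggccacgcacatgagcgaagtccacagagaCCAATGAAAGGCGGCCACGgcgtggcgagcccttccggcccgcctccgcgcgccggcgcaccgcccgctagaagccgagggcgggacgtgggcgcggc
*Hsp90b1* holds the motif 2 times, the second on the other strand. *Calr*, *Dnajc3* and *Syvn1*, which encode a calcium-binding chaperone, a cochaperone and a ubiquitin ligase, hold the motif and had log2 fold changes of -0.19, -0.06 and 0.10 (adjusted p = 0.0832, 0.483 and 0.227 from edgeR), so members with the motif were not all called. The motifs searched for the other lists were not found in the windows of their called members. Members without a window could not be searched, and how many of these were called was not counted. The E-box, searched as CACGTG, occurred in 9.42% of windows and in 4 of the 16 clock genes with a window, 0 of them among the 8 called. The sterol response element, searched as TCAC, any base and CCAC, occurred in 1.17% of windows and in 1 of 22 genes of cholesterol and fatty acid synthesis, which was not among the 9 called. The CArG box occurred in 1.36% of windows and in 3 of 25 immediate early genes, 0 of them among the 7 called.

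Genes of the circadian clock differed in both directions. Of 20 measured members 6 were higher in L, 2 were lower and 12 did not pass (median log2 fold change 0.19). *Per2* and *Cry2* encode repressors of the clock. *Per2* was at 20.3 to 37.1 CPM in V (median 28.8) and 27.9 to 79.9 CPM in L (median 39.2), a log2 fold change of 0.70 (adjusted p = 0.017 from edgeR), with its highest levels in CL1 and CL2. *Cry2* was at 16.2 to 42.4 CPM in V and 24.5 to 57.7 CPM in L, a log2 fold change of 0.52 (adjusted p = 0.00918 from edgeR). *Nfil3*, a repressor of clock output, was lower, at 75.1 to 124 CPM in V (median 113) and 72.6 to 100 CPM in L (median 80.3), a log2 fold change of -0.44 (adjusted p = 0.00281 from edgeR). As for *Acta1*, its lowest V library was SV6.

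Of the others called, *Nr1d1*, the repressor REV-ERBalpha, was picked after its values were seen and was at 120 to 272 CPM in V and 71.2 to 179 CPM in L. Its log2 fold change was -0.63 (adjusted p = 0.0383 from edgeR). *Usp2*, a deubiquitinase under clock control, *Npas2*, an activator, and *Arntl*, which encodes the activator BMAL1, were chosen in the same way and were at 0.47, 0.34 and 0.23 (adjusted p = 0.0284, 0.0215 and 0.0471 from edgeR). The direction of each member named here was the same within Con and within Str, the log2 fold changes of *Nr1d1* being -0.66 and -0.60 and those of *Per2* 0.99 and 0.40. Without the 4 libraries that hold liver transcripts 2 members were higher, *Cry2* among them, and 1 was lower, *Nfil3*. *Per2* and *Nr1d1* then no longer passed, at log2 fold changes of 0.49 and -0.50 (adjusted p = 0.0932 and 0.148 from edgeR). Without the covariate 3 were higher and 1 lower. With single libraries left out between 4 and 7 members were higher, 4 of them without CV3, CV6, CL1, CL2 or SL2, and between 1 and 3 were lower, 1 of them without CV6, CL1, CL2, CL3, SV5, SV6, SL1 or SL2. The study collected tissue within a window of some hours after the last stressor, and the labels do not place single libraries in it.

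Most markers of smooth muscle and a few of fibroblasts, cells which an EpCAM sort should remove, were higher in L. In such bulk libraries, fewer cells of a type and less RNA per cell cannot be told apart. Of 11 measured smooth muscle markers 8 were higher in L, 0 were lower, and all 11 had a positive log2 fold change (median 0.64, against -0.00 over all genes). *Lmod1*, which encodes the actin filament nucleator leiomodin, was at 0.442 to 1.24 CPM in V (median 1.10) and 1.14 to 2.35 CPM in L (median 1.87). Only CL6 among the L libraries lay within the V range, and the log2 fold change was 1.01 (edgeR, adjusted p = 0.0026, SE 0.17). *Synpo2*, an actin-bundling protein of muscle, was at 1.37 to 2.80 CPM in V (median 1.83) and 2.59 to 4.51 CPM in L (median 3.13), with only CL1 inside the V range and a log2 fold change of 0.76 (adjusted p = 0.0026 from edgeR).

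*Myh11*, the smooth muscle myosin heavy chain, was at 10.7 to 36.8 CPM in V (median 26.7) and 25.8 to 56.1 CPM in L (median 36.1), a log2 fold change of 0.65 (adjusted p = 0.0321 from edgeR). *Cav1*, which encodes the caveolar coat protein caveolin and is no member of the list, was at 4.03 to 10.97 CPM in V and 6.64 to 16.2 CPM in L. Its log2 fold change was 0.87 (adjusted p = 0.00918 from edgeR), and 0.89 without the 4 libraries that hold liver transcripts (adjusted p = 0.0502 from edgeR). The summed level of the smooth muscle list was 146 to 228 CPM in V (median 188) and 186 to 270 CPM in L (median 223), so the 2 sides overlapped. The count of called members was between 3 and 9 with single libraries left out. It was 3 without CV1, CV6, CL3, CL4, SV6, SL2 or SL4, a loss that took *Myh11* with it, 4 without CV2, CL1, CL2 or SV1 and 5 without CV3, and it was 4 without the 4 libraries that hold liver transcripts and 3 without the covariate. *Lmod1* and *Synpo2* passed under all 29 alternatives.

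Of 13 measured fibroblast markers 3 were higher in L, 10 did not pass and all 13 had a positive log2 fold change (median 0.57). The 3 were *Vim*, an intermediate filament gene of mesenchymal cells, *Sparc*, a secreted collagen-binding protein, and *Pdgfra*, a growth factor receptor. *Vim* was at 22.6 to 46.7 CPM in V (median 31.7) and 33.7 to 60.4 CPM in L (median 47.2), with 6 of the 10 L libraries above every V library and a log2 fold change of 0.53 (adjusted p = 0.0162 from edgeR). *Sparc* and *Pdgfra* were at 0.59 and 0.64 (adjusted p = 0.0304 and 0.0463 from edgeR). Summed over the list, V was at 240 to 753 CPM (median 438) and L at 455 to 825 CPM (median 692). The number called was 8 with DESeq2, 9 with limma-voom, 2 without the 4 libraries that hold liver transcripts, 13 without CV4, 9 without SV5, 8 without SL5, 5 without CL6 and 1 without CV1, CV3, CV6, CL1, CL2, CL4 or SV6.

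Among 10 endothelial markers 0 passed and 9 were positive (median 0.45, or 0.85 within Con and 0.06 within Str), and this difference between Con and Str was not tested for the list. *Pecam1*, the endothelial adhesion protein CD31, picked after its values were seen, was at 0.42 (adjusted p = 0.0625 from edgeR). The 3 measured general leukocyte markers summed to 17.6 to 27.7 CPM in V and 16.8 to 22.6 CPM in L, and 0 of them passed in edgeR, nor did the measured markers of macrophages and dendritic cells (5), neutrophils (2) or mast cells (1). Single immunoglobulin genes rested on few libraries. *Igkc*, the kappa constant region, picked after its values were seen, reached 24.1 CPM in SL4 and 9.06 CPM in CL4 and was at 0.329 to 3.42 CPM in the other 18, a log2 fold change of 1.94 (adjusted p = 0.0623 from edgeR). Several rare transcripts were higher in L too. *Col4a5*, a basement membrane collagen chain, was at 1.31 to 4.08 CPM in V and 2.71 to 6.03 CPM in L (0.85, adjusted p = 0.0172 from edgeR). *Pla2g7*, a secreted phospholipase, *Itga9*, an integrin chain, and *Sgcd*, a sarcoglycan of muscle, were at 0.82, 0.81 and 0.83 (adjusted p = 0.00902, 0.0177 and 0.0118 from edgeR). Without the 4 libraries that hold liver transcripts *Sgcd* was at 0.82 (adjusted p = 0.0558 from edgeR). *Abcc9*, a potassium channel subunit of vascular cells, was at 0.94 (adjusted p = 0.0365 from edgeR) and passed in 16 of the 29 alternatives. Whether mesenchymal RNA had any part in the other differences between L and V was not tested.

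**Figure D3:**
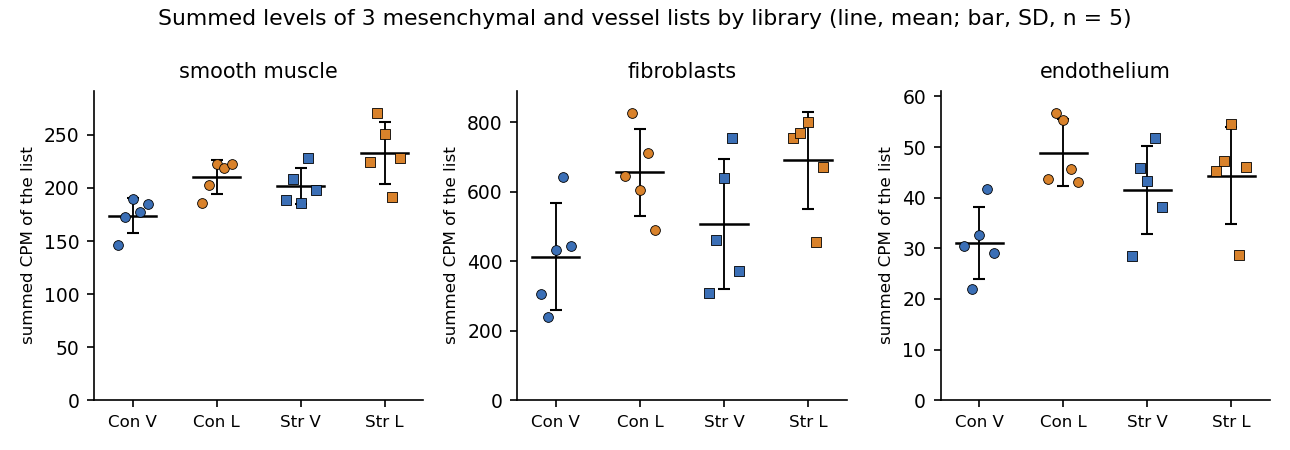
Summed CPM (vertical axes, from 0) of the smooth muscle, fibroblast and endothelial marker lists in each library by group and letter, with the mean (line) and SD (bar) of 5 libraries. The L libraries lie higher on average for smooth muscle (median 223 against 188 CPM) and fibroblasts (median 692 against 438 CPM), and the ranges of L and V overlap in all 3 panels.

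Many ribosomal protein genes and part of the nuclear genes of the respiratory chain were slightly lower in L. Of 28 listed names of genes of the mitochondrial genome 0 were among the measured genes, so these could not be compared. Of 75 measured cytosolic ribosomal protein genes 45 were lower, 0 were higher, and 74 had a negative log2 fold change (median -0.16). *Rplp1*, an acidic protein of the ribosomal stalk, was at 666 to 802 CPM in V (median 714) and 549 to 664 CPM in L (median 576). Its 2 sides did not overlap, the highest L library lying just under the lowest V library, SV2, and the log2 fold change was -0.30 (edgeR, adjusted p = 0.00128, SE 0.04). *Rplp2* and *Rpl11*, proteins of the large subunit, were at -0.25 and -0.21 (adjusted p = 0.00435 and 0.00918 from edgeR). Ribosomal protein genes have many processed pseudogenes. Whether the counting of reads from near-identical copies had a part in these changes was not tested. The 514 measured pseudogenes of all kinds had a median log2 fold change of -0.04, with 6 higher and 7 lower. With library sizes as the only scaling 24 of the 75 were lower, without the 4 libraries that hold liver transcripts 6 were, and without CV3, CL4, SV6 or SL2 23, 28, 28 and 29 were, while the median stayed between -0.18 and -0.13 in all these settings.

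Of 50 nuclear genes of the respiratory chain 14 were lower, 0 were higher, 36 did not pass, and all 50 had a negative log2 fold change (median -0.13). *Ndufa10*, a subunit of complex I, was at 171 to 220 CPM in V (median 193) and 150 to 178 CPM in L (median 166), with 8 of the 10 L libraries below every V library and a log2 fold change of -0.22 (adjusted p = 0.00582 from edgeR). *Cox5b*, a subunit of cytochrome oxidase, was at -0.23 (adjusted p = 0.0129 from edgeR). The number called ranged from 3 without CV3, SV6 or SL2 to 37 without CV4, was between 4 and 9 without CV1, CV2, CV6, CL1, CL2, CL4, SV4, SV5 or SL6, was 4 with library sizes as the only scaling and 5 without the covariate, and was 15 without the 4 libraries that hold liver transcripts. All 30 measured proteasome genes were negative too (median -0.12), of which 3 were lower, led by *Psmb7*, a catalytic subunit, at -0.23 (adjusted p = 0.0106 from edgeR), with 12 lower without CV4, 8 without SV2, 5 without CL6 and 1 without CV3, CL4 or SV6. Of 29 genes of mitochondrial fatty acid oxidation and ketogenesis 2 were lower and 27 did not pass (median -0.11), with 5 lower with DESeq2, 1 with library sizes as the only scaling or without the 4 libraries that hold liver transcripts, and 2 to 6 with single libraries left out, over 2 without CV4, CL6, SV2, SL4 or SL5. *Acat1* of this list, an enzyme of ketone body metabolism, was at -0.20 (adjusted p = 0.0129 from edgeR). Of 32 genes of glycolysis and the citric acid cycle 5 were lower and 27 did not pass (median -0.07). The count was 12 without CV4 and 1 without CV3, CV6, CL2, CL4, SV6 or SL2. It was also 1 with library sizes as the only scaling or without the 4 libraries. *Pdhb*, a pyruvate dehydrogenase subunit among the 5, was at -0.21 (adjusted p = 0.00378 from edgeR).

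Cholesterol synthesis was also lower in part. Of 32 measured genes of cholesterol and fatty acid synthesis 9 were lower, 0 were higher, and 29 had a negative log2 fold change (median -0.17). *Stard4*, a cholesterol transfer protein, was at 298 to 377 CPM in V (median 320) and 243 to 300 CPM in L (median 278). Of the L libraries, 9 lay below every V library, CL2 being the exception, and the log2 fold change was -0.24 (edgeR, adjusted p = 0.00731). *Mvk*, mevalonate kinase, and *Cyp51*, a demethylase of lanosterol, were at -0.31 and -0.27 (adjusted p = 0.0195 and 0.0203 from edgeR). The fatty acid synthase gene *Fasn* and the regulator *Srebf2*, picked after their values were seen, were at -0.12 and -0.10 (adjusted p = 0.359 and 0.0522 from edgeR). The count was 15 with DESeq2, 6 with library sizes as the only scaling, 18 without CV4, 4 without the covariate, CV6 or CL1, 5 without CV1, CV3, SV6 or SL4, and 2 without the 4 libraries that hold liver transcripts. In that last fit *Cyp51* no longer passed, at a log2 fold change of -0.27 (adjusted p = 0.0505 from edgeR).

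**Figure D4:**
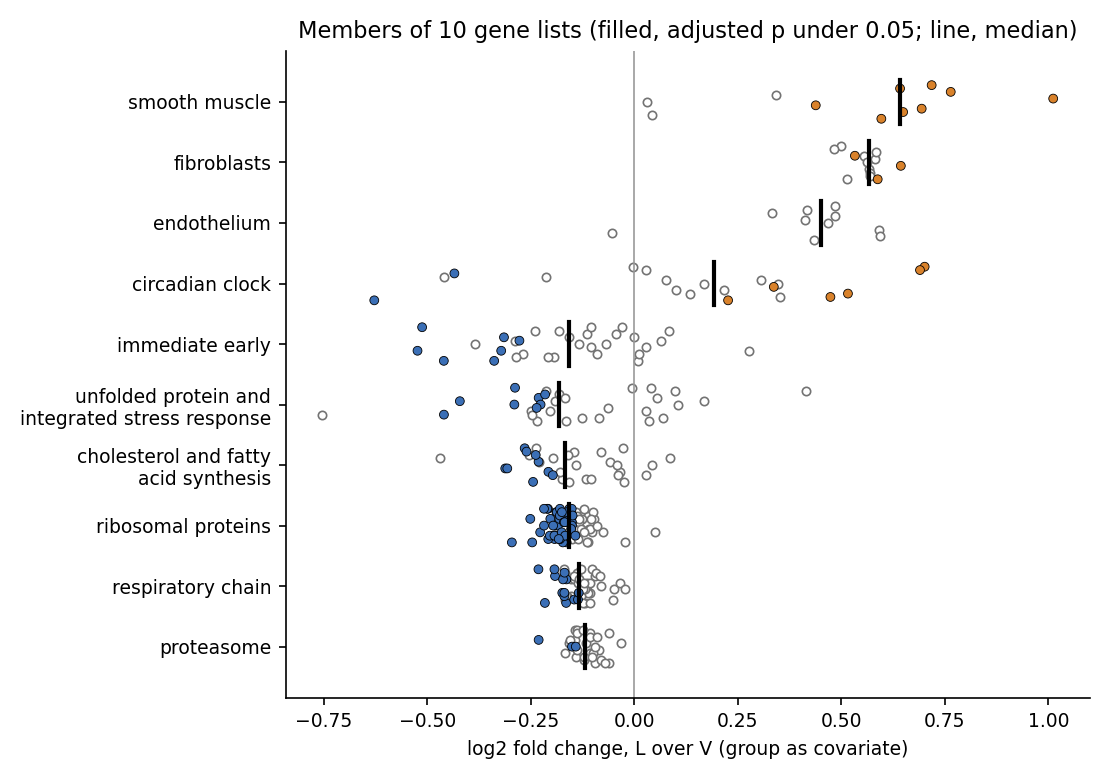
Log2 fold change, L over V (horizontal axis), of each measured member of 10 gene lists, filled where the adjusted p from edgeR was under 0.05, with the list's median as a line. Medians run from 0.64 for smooth muscle to -0.18 for the unfolded protein and integrated stress response, and all 30 proteasome and all 50 respiratory chain genes lie below 0.

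Few markers of the epithelial cell types passed. Over all genes 4.89% passed, and at that share lists of this size would hold few called genes, so single calls here say little about a cell type. Of 17 goblet cell, 22 enteroendocrine, 16 tuft cell and 9 deep crypt secretory cell markers 0 passed in edgeR, with medians of -0.02, -0.05, 0.21 and 0.01. In the 20 absorptive colonocyte markers 1 was higher, *Car4*, a membrane carbonic anhydrase, at 618 to 1282 CPM in V (median 1070) and 990 to 1782 CPM in L (median 1303). Its log2 fold change was 0.39 (adjusted p = 0.0491 from edgeR), and it passed in 13 of the 29 alternatives. *Rbp2*, a retinol carrier of enterocytes, was the 1 higher among 16 measured markers of small intestine type enterocytes. *Ephb3*, a receptor of crypt cells, was the 1 higher among 15 of crypt stem cells. They were at 0.44 and 0.25 (adjusted p = 0.0297 and 0.0416 from edgeR), and passed in 24 and 12 of the 29. *Fabp6*, the ileal bile acid carrier, was the 1 lower among the same 16 small intestine type markers. It was rare, at 0.965 to 2.77 CPM in V and 0.941 to 1.57 CPM in L. Its log2 fold change was -0.70 (adjusted p = 0.0134 from edgeR), and it passed in all 29 alternatives. Of 11 measured markers of epithelial identity 10 were negative (median -0.07) and 1 was lower, *Krt18*, a keratin of simple epithelia, at -0.14 (adjusted p = 0.0243 from edgeR). Markers of squamous epithelium were at 76.5 to 105 CPM in sum in V and 61.3 to 82.0 CPM in L. Of 6 measured 1 was lower, *Sprr1a*, a cornified envelope protein, at -0.61 (adjusted p = 0.00696 from edgeR), and 5 were negative (median -0.13). *Sprr1a* was at 25.4 to 52.2 CPM in V (median 38.7) and 15.3 to 33.3 CPM in L (median 25.7), and the sides overlapped. Of 17 antimicrobial genes 2 were lower and 14 negative (median -0.28), with *Gsdmc2*, a gasdermin, at -0.36 (adjusted p = 0.0178 from edgeR), and 1 was lower without the 4 libraries that hold liver transcripts, without the covariate, or without CV1, CV3, CV6, CL1, CL2, CL3, CL4, CL6, SV2, SV5, SV6, SL2, SL4 or SL5. Of 18 tight junction genes 1 was lower, *Pard6b*, a polarity protein, at -0.45 (adjusted p = 0.00918 from edgeR). The largest falls of rare genes, *Pla2g4c* (-1.03), *Chil5* (-0.75) and *Apol8* (-0.73), which encode a phospholipase, a chitinase-like protein and an apolipoprotein L, had adjusted p of 0.0475, 0.0417 and 0.0297 from edgeR and passed in 11, 10 and 26 of the 29 alternatives. The 10 measured liver markers were all negative with a median of -0.30 (-0.54 within Con, where 3 of the 4 libraries that hold liver transcripts are V, and -0.01 within Str), and 0 of them passed.

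Of 18 genes tested that the study names or that are related to those it names, *Saa1*, *Duox2*, *Nos2*, *Reg3b*, *Il18* and *Stat3* among them, 0 passed in edgeR. *Saa1*, an acute phase protein, was at 177 to 929 CPM in V and 208 to 1143 CPM in L, a log2 fold change of 0.22 (edgeR, adjusted p = 0.446, SE 0.17). *Duox2*, the epithelial oxidase that makes hydrogen peroxide, was at 75.1 to 500 CPM in V and 87.7 to 478 CPM in L (-0.13, SE 0.21, adjusted p = 0.765 from edgeR). The secreted antimicrobial lectin *Reg3b* was at -1.26 (edgeR, adjusted p = 0.174, SE 0.56) with levels from 1.23 to 2296 CPM in V, so a difference of this size was not detectable against its spread.

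Long noncoding RNAs and long transcripts were on the higher side. Of 1658 long noncoding RNA genes 50 were higher in L (3.02%) and 2 lower (0.121%), with a median log2 fold change of 0.09, against 2.36% higher and 2.96% lower among 13244 protein coding genes. The share of all counts in long noncoding RNA genes was 1.71 to 2.59% in V (median 2.15%) and 1.95 to 2.94% in L (median 2.51%). The difference of the means was 0.336 percentage points, larger than the spread allows by an exact two-sided permutation test within Con and within Str (63504 arrangements, p = 0.00661, adjusted p = 0.0265 over 4 library values). A few abundant RNAs hold much of this share. The 7 measured members of a list of abundant nuclear long noncoding RNAs, of which 1 was called higher, summed to a median of 14690 CPM in V and 17742 CPM in L. The share was not tested without them. *Kcnq1ot1*, a nuclear RNA that silences neighbouring imprinted genes and lies on chromosome 7 from 143213111 to 143296547, was at 33.1 to 76.1 CPM in V (median 53.3) and 69.6 to 113 CPM in L (median 83.2). Of the L libraries, 7 lay above every V library, and the log2 fold change was 0.64 (edgeR, adjusted p = 0.00972, SE 0.13). *Malat1*, an abundant nuclear RNA picked after its values were seen, lay at 9902 to 17144 CPM in V and 11131 to 20050 CPM in L, a log2 fold change of 0.23 (adjusted p = 0.113 from edgeR).

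Protein coding genes were also split into 5 bins of equal size by the length of their longest annotated transcript. From the shortest to the longest bin the share lower in L fell from 5.75% to 0.651%, while the share higher rose from 1.23% to 3.98%. The median log2 fold change went from -0.05 to 0.04, and the same order held within Con (-0.04 to 0.03) and within Str (-0.07 to 0.06). Without the ribosomal, respiratory chain and proteasome lists the shares lower were 4.02% in the shortest and 0.651% in the longest bin. Genes are not independent replicates, so this is a description. A relation of this kind touches the small changes of short genes above, the ribosomal protein, respiratory chain and proteasome genes among them, and the part of transcript length in those changes was not tested. Called protein coding genes also differed in level. The median was 95.1 CPM among the lower and 17.3 CPM among the higher genes, against 23.5 CPM among all protein coding genes. The part of level in the called shares was not tested.

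**Figure D5:**
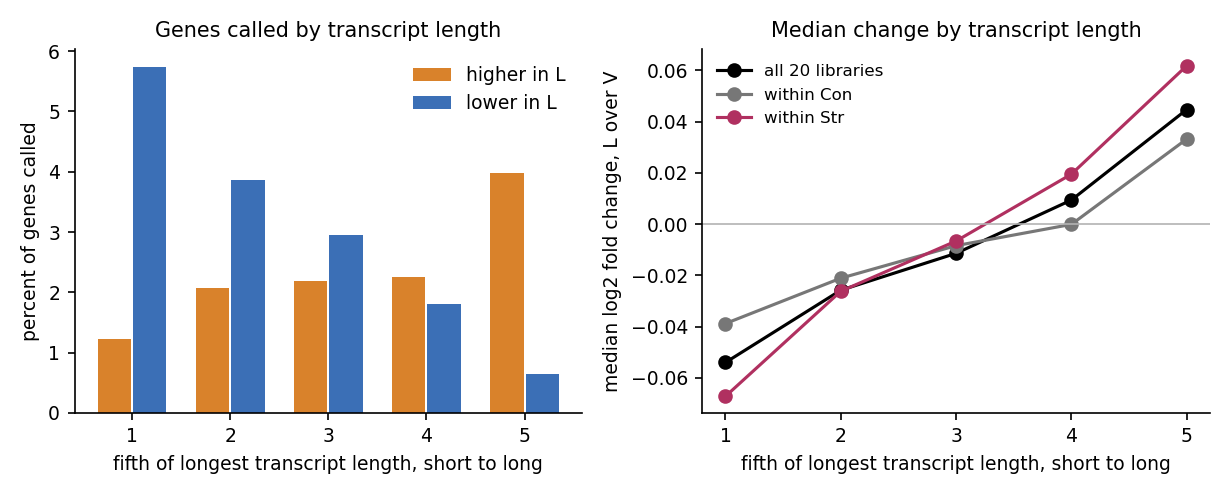
Left, percent of protein coding genes called higher or lower in L by bin of longest transcript length (from 5.75% lower in the shortest to 0.651% in the longest bin). Right, the median log2 fold change of each bin over all 20 libraries, within Con and within Str, which goes from -0.05 to 0.04 over all libraries.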

How the data were processed

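The values used are whole-number counts per gene that the authors deposited, made from reads aligned with STAR to GRCm38.p4 and counted with HTSeq. Their ribosomal RNA depletion and directional library kit leave noncoding and nuclear RNA in the data. Another 20 columns of scaled values per sample were not used. A library's group and letter come from its column name. L and V were compared with the quasi-likelihood F test of edgeR 4.0.16 under R 4.3.3, TMM scaled, with Con or Str as covariate. Genes needed a mean count of 4, below the lowest mean of 6 in the table, and p-values were adjusted by Benjamini-Hochberg across 15876 genes. Levels are CPM on TMM-scaled library sizes. Single library values were tested by exact permutation (Python 3.11.15, numpy 2.4.6, scipy 1.17.1).

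The gene lists, the comparison and the rules were chosen with earlier results of these data known. The rule names the 12 genes of smallest p in each direction, the 8 of largest change, up to 4 called members per list, genes the study names and the 6 of smallest interaction p in each direction. It was applied to genes with a mean of at least 1 CPM except for the lists and the study's genes. Some predicted genes and members of small effect are counted only, and genes outside the rule are marked as picked after their values were seen. Gene positions and promoters are from RefSeq, GRCm38.p6, and transcript lengths from GENCODE.

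Alternatives were DESeq2 1.42.0, limma-voom 3.58.1, other scalings and filters, no covariate, a replicate block, stricter thresholds, each group alone, each library left out in turn and the comparison without 4 libraries. The effect of these on the gene lists and on Str against Con within each letter was added after the data were seen. One immune marker list is not reported here. The test was checked on simulated data.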

Additional observations from a re-analysis of the deposited data

Results flagged for a closer look

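In each of the 4 combinations of group and letter, with 5 libraries apiece, a library was singled out where its gap to the nearest other library was over 0.71 of the whole range (Dixon's 95% limit for 5 values). This was met in 28 of 416 sets of 5 values (6.73%), where chance gives about 1 in 20, and no cause was tested. The most extreme case was *Igkc* at 24.1 CPM in SL4, 9.06 CPM in CL4 and 3.42 CPM in CV1, the next library of the same combination being at 1.72, 2.45 and 1.00 CPM.

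Among the V libraries, SV2 stood high for *Tnfrsf10b* at 58.6 CPM, *Pla2g7* at 3.85 CPM and *Pla2g4c* at 6.55 CPM and low for *Rplp1* at 666 CPM, for which CV3 stood high at 802 CPM. SV5 stood low for *Per2* at 22.2 CPM, *Nos2* at 2.64 CPM and *Stat3* at 228 CPM and high for *Stard4* at 377 CPM. SV4 stood low for *Cox5b* at 434 CPM, CV2 low for *Cxcl1* at 43.6 CPM and CV4 high for *Usp2* at 15.9 CPM. CV1 stood high for *Nos2* at 3.26 CPM and *Hdac4* at 71.1 CPM. SV6, the lowest V library for several immediate early genes, stood low for *Jun* at 1875 CPM, and it had 6 genes with no count against 2 in the next library.

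Among the L libraries, CL4 stood high for *Tatdn2* at 131 CPM and *Gadd45a* at 185 CPM, CL2 high for *Vim* at 60.4 CPM and CL1 high for *Gfi1* at 7.29 CPM. SL4 stood high for *Sgcd* at 3.48 CPM and low for *Duox2* at 203 CPM. SL5 stood low for *Sparc* at 26.5 CPM, SL2 low for *Krt18* at 488 CPM and SL1 high for *Ier2* at 269 CPM.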

How the results depend on the processing

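Of 116 called genes that the naming rule or the text picked, 53 passed in edgeR or the other tool under each of the 29 alternatives, 60 passed without the 4 libraries that hold liver transcripts, and 0 changed direction in any of them. Dropping the filter on low counts, or using the filter of edgeR, kept the same 15876 genes and so repeated the main fit. Each count out of the 29 alternatives, here and above, includes these repeats as passes for every called gene. The counts of called genes moved with most choices, and the cause was not tested. Scaling by library size alone gave 576 higher and 194 lower genes in L, 30 higher within Con and 10 higher within Str, and 127 lower in Str than Con within L. With DESeq2, 678 were higher and 672 lower in L, 116 and 155 within Con, 77 and 123 within Str, 1 passed the interaction, and 596 were higher and 169 lower in Str within L. With limma-voom, 2 were higher within Str, and 194 were higher in Str within L. Without CV3, CV4, CV6 and CL1, 79 were higher and 123 lower in L, 0 and 1 within Con, 0 higher within Str, and Str against Con gave 4 and 7 within V and 76 and 22 within L. Without the covariate 157 were higher and 225 lower. The Con libraries alone gave 5 higher, the Str libraries alone 0 and 0, and the L libraries alone 9 and 2 between Str and Con. At an adjusted p under 1e-05 with a log2 fold change over 0.5, 0 and 0 genes passed. With single libraries left out, L against V gave 130 to 740 higher and 189 to 677 lower genes, 0 to 81 and 0 to 59 within Con, 0 to 21 and 0 to 24 within Str, and 0 for the interaction, while Str against Con gave 571 to 1129 and 420 to 1041 within V and 77 to 617 and 9 to 241 within L.

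Whether the numbers in the library names pair the libraries is not known. Deviations of same-numbered L and V libraries correlated at -0.317 to 0.257, over 0.1 in 4 of 10 pairs. Of the V libraries 4 correlated best with the L library of their own number, so this check cannot exclude that some numbers pair. A fit with these numbers as a replicate block called 616 higher and 530 lower genes, 332 and 378 of them shared, and 0 for the interaction.

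Genes not called in L against V changed sign under some settings. These were *Muc13* (0.0076 with library sizes only, -0.076 to 0.0513 with single libraries left out), *Nos2* (0.18 with limma-voom, 0.29 without the covariate, -0.30 to 0.0647), *Tlr4* (-0.003378 with limma-voom, -0.0227 without the 4 libraries, -0.0288 to 0.0638), *S100g* (0.13 without the 4 libraries, -0.46 to 0.0509), *Duox2* (-0.21 to 0.0723), *Saa2* (-0.19 to 0.0022) and *Fut2* (-0.16 to 0.0157), all as log2 fold changes. For genes near 1 CPM about 20 counts stand behind each value, so small changes there were not detectable at this depth.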
